A study of Homo sapiens with 12 samples.

Results

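The genes described here are 10 enzymes that build serine, one-carbon units, asparagine and proline: PHGDH, PSAT1, PSPH, SHMT2, MTHFD2, MTHFD1L, ALDH1L2, ASNS, PYCR1 and ALDH18A1. They were chosen by name, through the Ensembl gene IDs of the count table, and all 10 were found among its 60675 genes, of which 30808 had a count. RNA was sequenced from SW1783, a human astrocytoma cell line, 24 h after adding water extract of Aconitum carmichaeli Debeaux (ACD) root, to ask how the extract acts on a brain-derived cell. PBS with 2% DMSO served as the vehicle, and the extract was given at 20 (low dose), 100 (medium dose) and 500 µg/mL (high dose). The extract stock was made in the same solvent and was diluted in the culture medium. Each of the 4 groups had 3 libraries of the same line, and every group was grown in the same serum-containing medium. The extract is named after the sample titles and treatment labels, because the treatment protocol supplied with the samples describes a different herb, Poria cocos. Nothing says that the libraries of a group came from separate cultures, so p-values measure the spread between these libraries, which may be technical.

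Cells make serine from a glycolysis intermediate in a 3-step route that runs through PHGDH, PSAT1 and PSPH. In mitochondria SHMT2 splits serine to glycine and passes a one-carbon unit to folate, and MTHFD2, MTHFD1L and ALDH1L2 oxidise or release that unit for purine, thymidylate and NADPH supply. ASNS makes asparagine from aspartate and glutamine, and ALDH18A1 and PYCR1 catalyse the first and last steps from glutamate to proline. Many of these genes are known targets of ATF4, a transcription factor of the amino acid and stress responses, and several are high in proliferating tumour cells, gliomas included.

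Total counts per library ran from 18863852 to 24200565. The share of counts from mitochondrially encoded genes was 5.03 to 5.29% with vehicle, 6.45 to 7.56% at low dose, 10.6 to 10.8% at medium dose and 8.99 to 9.29% at high dose, and it moved with dose. With those genes left out of the fit, the same enzymes were called in each comparison. The astrocyte markers GFAP, S100B, AQP4 and ALDH1L1 had at most 6 counts in any library, while SOX9, VIM and CD44, which gliomas and many other cells express, had at least 1081. Of the 5 colon epithelium markers none exceeded 4 counts. SLC1A3 and NES of the astrocyte and glioma list averaged 690 and 214 normalised counts with vehicle and 126 and 64.7 at the high dose. Among neuron and leukocyte markers, SNAP25 went from 704 to 167, SYT1 from 638 to 868, PTPRC from 275 to 84.8 and CD68 from 2864 to 3953, while PECAM1 had at most 17 counts and RBFOX3, STMN2, AIF1, CD3E, CDH5 and VWF at most 7 in any library, and the part of these markers in the results was not tested. In bulk RNA, fewer cells of a type and less RNA per cell cannot be told apart.

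At the high dose 9 of the 10 enzymes rose against vehicle, by 1.52-fold (PSPH) to 7.32-fold (ASNS), and ALDH18A1 alone did not. A gene was called when the two-sided Wald test of DESeq2 gave a Benjamini-Hochberg adjusted p under 0.05 over all genes tested and the fold change exceeded 1.5. This p is given as the Wald adjusted p. Of all genes tested at the high dose, 8.66% were called higher and 9.57% lower. At the medium dose 8 of the 10 were called higher, against 2.34% of all genes tested called higher and 1.48% lower. Not called were PSPH, which was 1.38-fold higher, and ALDH18A1. At the low dose none of the 10 passed the fold threshold, where 0.0967% of all genes were called higher and 0.0215% lower by DESeq2. The edgeR quasi-likelihood test also called 0. At an unadjusted p under 0.05 in DESeq2, 7 of the 10 were higher, against 2.79% of all genes fitted. By the adjusted p alone, 6 of the 10 were higher at the low dose, namely PHGDH, PSAT1, SHMT2, ALDH1L2, ASNS and PYCR1, against 2.05% of all genes tested. That count was 4 without vehicle replicate 2, when PHGDH and PYCR1 were lost, and 5 without low dose replicate 2 or vehicle replicate 1, when PYCR1 was lost.

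The median log2 fold change of the 10 enzymes was 0.22 at low dose, 0.89 at medium dose and 1.33 at high dose. The median over all genes tested lay within 0.01 of 0 at each dose. These 3 comparisons share the vehicle libraries. The DESeq2 likelihood ratio test found a difference among the 4 groups for all 10 enzymes at an adjusted p under 0.05, against 45.8% of all genes tested. For 7 of the 10 the 4 groups stood in rising dose order with no overlap between the libraries of neighbouring groups, against 2.55% of all genes tested, and the exceptions were PSPH, MTHFD1L and ALDH18A1. The 10 genes together held 0.0638% ± 0.0002 of all counts with vehicle (SD, n = 3), 0.0705% ± 0.00183 at low dose, 0.118% ± 0.00203 at medium dose and 0.16% ± 0.00331 at high dose.

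**Figure D1:**
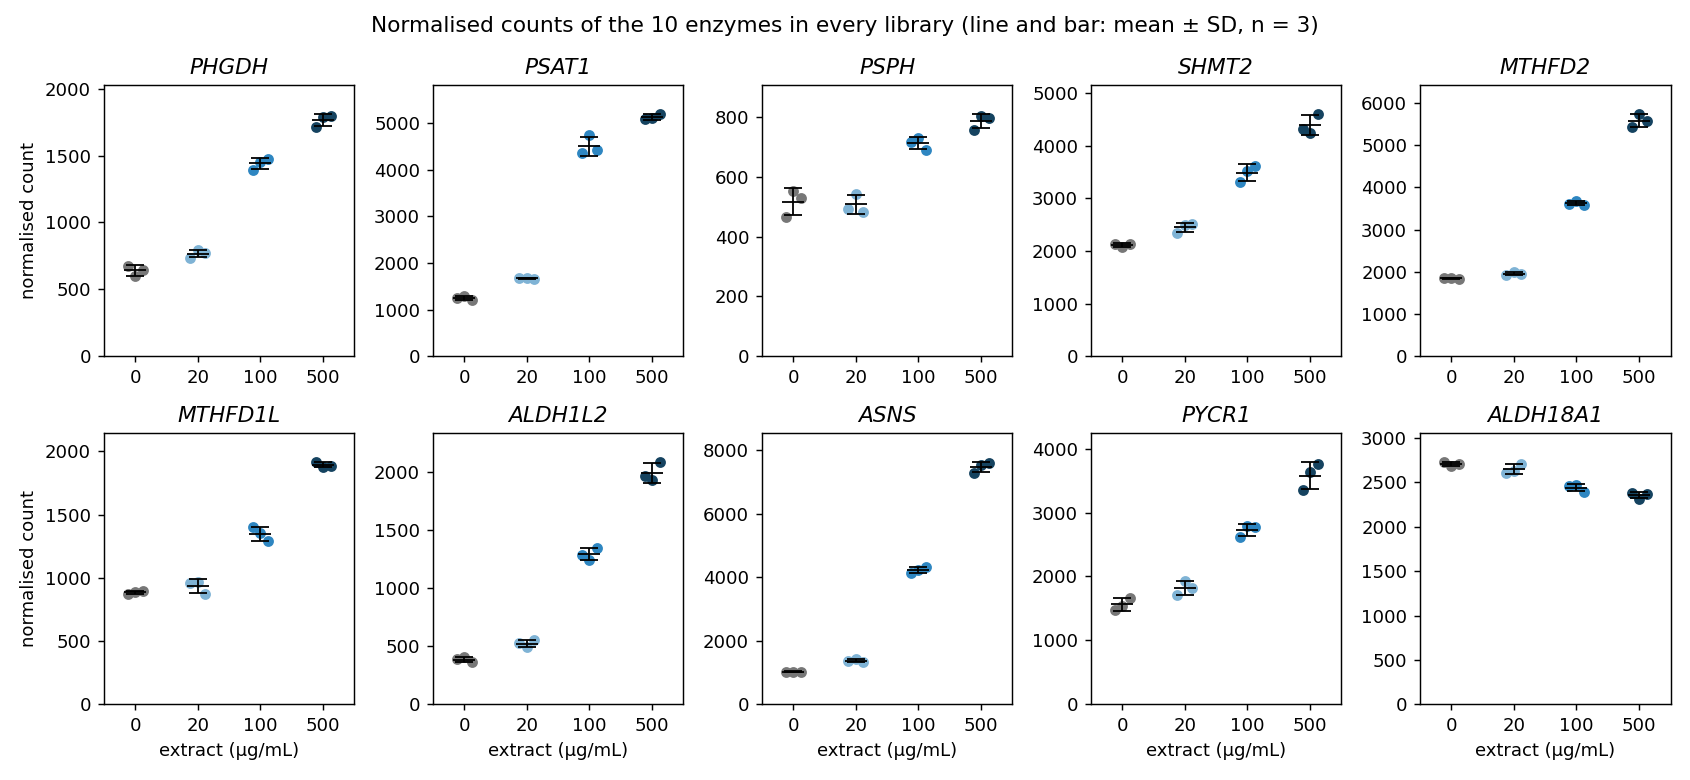
Normalised counts of the 10 enzymes (vertical axes, from 0) in each library by extract concentration in µg/mL (horizontal axes, evenly spaced, 0 is vehicle). Points are libraries, and the line and bar are the mean ± SD over 3 libraries. At the high dose 9 of the 10 enzymes are called higher, against 8.66% of all genes tested. ALDH18A1, whose high dose points lie below its vehicle points, is not called. By the Wald adjusted p alone 46.5% of all genes tested differ between high dose and vehicle.

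Because most of the enzymes moved together, their promoters were searched for core letters that ATF4, MYC and NRF2, regulators known for such enzymes, can bind. RefSeq windows on GRCh38.p14, from 250 bases before to 50 after each start, were at hand for 6 of the 10 (PHGDH, PSAT1, MTHFD2, MTHFD1L, ASNS and ALDH18A1), and PSPH, SHMT2, ALDH1L2 and PYCR1 were not searched. TGATGNAA, the core of the C/EBP-ATF response element, was found on either strand in ASNS and MTHFD1L and in 3.62% of all 35116 windows. CACGTG, the E-box, which reads the same on both strands, was found in MTHFD1L and ALDH18A1 and in 7.26% of all windows. TGACNNNGC, the core of the antioxidant response element, was found in MTHFD2 and in 13.3% of all windows. These shares count windows, while the enzymes are counted as genes with a match in any window. The 6 genes have 10 windows, with 4 for MTHFD1L and 2 for ASNS, so the counts and shares are not like for like. No match overlapped another. The 30 bases around each match are shown 5′ to 3′ on the gene's strand, with the matching letters in capitals:
ASNS, chr7:97872458-97872487, minus strand: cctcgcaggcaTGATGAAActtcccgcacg
MTHFD1L, chr6:150866346-150866375, plus strand: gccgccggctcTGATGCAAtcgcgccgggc
MTHFD1L, chr6:150866320-150866349, plus strand: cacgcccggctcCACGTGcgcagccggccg
ALDH18A1, chr10:95656830-95656859, minus strand: gggctggcccgcCACGTGgagcgctggctt
MTHFD2, chr2:74198611-74198640, plus strand: ttccctcccgGCGCAGTCAccggcgcggtc
The MTHFD2 letters match on the opposite strand. The ASNS match begins at position -68 from its start and the ALDH18A1 match at -136. MTHFD1L has several RefSeq starts, and its TGATGNAA match begins at -129, -90 or 25 depending on the start. PHGDH and PSAT1 had none of these letters in their windows. Bases outside the windows were not searched, and whether a match goes with a gene's change was not tested. A match is a description of letters and not evidence of binding.

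The serine route opens with PHGDH (ENSG00000092621, chromosome 1, 119648411 to 119744218, GRCh38, plus strand), the dehydrogenase that commits 3-phosphoglycerate to serine. Its normalised counts (counts divided by DESeq2 size factors) in replicates 1, 2 and 3 were 677, 600 and 646 with vehicle and 737, 792 and 770 at the low dose. They were 1394, 1451 and 1478 at medium dose and 1717, 1787 and 1798 at high dose. No library of a dose overlapped the dose below it. PHGDH rose 2.76-fold at high dose (log2 fold change 1.47, SE 0.0596, Wald adjusted p 1.08e-131) and 2.25-fold at medium dose (1.17, SE 0.0604, Wald adjusted p 1.6e-81). At the low dose its log2 fold change was 0.26 (SE 0.0638, Wald adjusted p 0.00371), short of the fold threshold.

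PSAT1 (ENSG00000135069, chromosome 9, 78297125 to 78330093, plus strand), the aminotransferase that brings the nitrogen of glutamate into serine, changed most of the 3. Normalised counts of PSAT1 were 1257, 1292 and 1202 with vehicle and 1679, 1684 and 1660 at the low dose. They were 4353, 4737 and 4415 at medium dose and 5096, 5100 and 5196 at high dose. All 4 groups were separate, and most of the rise was present at the medium dose. The log2 fold change was 2.04 (SE 0.0427) at high dose and 1.85 (SE 0.0429) at medium dose, both with a Wald adjusted p that the software wrote as 0. The low dose value was 0.42 (SE 0.0459, Wald adjusted p 4.85e-17). The high dose exceeded the medium dose by 0.19 on the log2 scale (SE 0.0379), a difference that passed the adjusted p but not the fold threshold. The 4 annotated pseudogenes of PSAT1 had at most 3 counts in any library.

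PSPH (ENSG00000146733, chromosome 7, 56011051 to 56051604, minus strand), the phosphatase that releases free serine, moved least among the enzymes that rose. PSPH had normalised counts of 466, 554 and 531 with vehicle, 494, 544 and 484 at low dose, 718, 732 and 691 at medium dose and 759, 805 and 796 at high dose. Vehicle and low dose libraries overlapped, and medium and high dose libraries lay above both. The high dose gave a log2 fold change of 0.60 (SE 0.0783, Wald adjusted p 8.42e-14), just past the threshold of 0.585 that 1.5-fold stands for, and it was 0.54 and no longer called without vehicle replicate 1. At the medium dose it was 0.46 (SE 0.079, Wald adjusted p 7.73e-08), under the fold threshold. The high and medium doses differed by 0.14 on the log2 scale, with a 95% interval of -0.01 to 0.29 (Wald adjusted p 0.127).

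The balance of the serine route's steps was followed as ratios within each library. The ratio of PSAT1 to PSPH counts was 2.43 ± 0.232 with vehicle (SD, n = 3), 3.31 ± 0.182 at low dose, 6.31 ± 0.216 at medium dose and 6.53 ± 0.186 at high dose. The ratio of PSAT1 to PHGDH counts was 1.96 ± 0.17 with vehicle and 2.9 ± 0.0581 at high dose, with its highest value, 3.12 ± 0.139, at medium dose. These ratios were picked after the values were seen and are given without a test. They are ratios of counts, not of levels per length, so their change with dose can be read but not their size.

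In the mitochondrial folate branch, SHMT2 (ENSG00000182199, chromosome 12, 57229573 to 57234935, plus strand) is the hydroxymethyltransferase that splits serine. Its normalised counts were 2131, 2081 and 2134 with vehicle and 2350, 2496 and 2511 at the low dose. They were 3309, 3532 and 3625 at medium dose and 4324, 4242 and 4607 at high dose. The 4 groups did not overlap. Of the SHMT2 exon bases 8.38% lie opposite exons of genes on the other strand. SHMT2 rose 2.08-fold at high dose (log2 fold change 1.05, SE 0.0442, Wald adjusted p 9.79e-124) and 1.65-fold at medium dose (0.72, SE 0.0447, Wald adjusted p 1.26e-56).

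MTHFD2 (ENSG00000065911, chromosome 2, 74186172 to 74217565, plus strand) is the mitochondrial dehydrogenase and cyclohydrolase that oxidises methylene-tetrahydrofolate. Its normalised counts were 1860, 1842 and 1825 with vehicle, 1928, 2000 and 1939 at low dose, 3614, 3682 and 3581 at medium dose and 5435, 5740 and 5580 at high dose. The low dose libraries all lay above the vehicle libraries, but by little: the log2 fold change was 0.09 (SE 0.0396, Wald adjusted p 0.286). It was 0.98 (SE 0.0375, Wald adjusted p 1.19e-146) at medium dose and 1.60 (SE 0.0366, adjusted p written as 0) at high dose. Of its exon bases 14.2% lie opposite exons of genes on the other strand, among them SLC4A5, and whether the counting used strand is not stated.

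MTHFD1L (ENSG00000120254, chromosome 6, 150865679 to 151101887, plus strand) is the mitochondrial synthetase that turns formyl-tetrahydrofolate into formate. Its normalised counts were 874, 885 and 896 with vehicle, 962, 968 and 868 at low dose, 1401, 1353 and 1288 at medium dose and 1915, 1878 and 1887 at high dose. Vehicle and low dose overlapped, and the higher doses were each separate. MTHFD1L rose 2.14-fold at the high dose (log2 fold change 1.10, SE 0.0554, Wald adjusted p 1.95e-85). At the medium dose the fold was 1.52 (log2 0.61, SE 0.0568, Wald adjusted p 1.07e-24), and without medium dose replicate 1 the log2 value was 0.58 and no longer called.

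ALDH1L2 (ENSG00000136010, chromosome 12, 105019784 to 105107643, minus strand), the mitochondrial formyl-tetrahydrofolate dehydrogenase that yields NADPH, rose most in this branch. The libraries held 388, 403 and 359 normalised counts with vehicle and 526, 488 and 549 at the low dose. The values were 1280, 1243 and 1344 at medium dose and 1959, 1926 and 2083 at high dose. No libraries of neighbouring doses overlapped. The rise was 5.18-fold at high dose (log2 fold change 2.37, SE 0.069, Wald adjusted p 9.42e-257) and 3.36-fold at medium dose (1.75, SE 0.0704, Wald adjusted p 3.69e-133). At the low dose the log2 value was 0.44 (SE 0.0759, Wald adjusted p 1.54e-06).

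ASNS (ENSG00000070669, chromosome 7, 97851677 to 97872542, minus strand), asparagine synthetase, showed the largest change of the 10. Its normalised counts were 1031, 1028 and 1004 with vehicle and 1356, 1422 and 1329 at the low dose. They were 4139, 4227 and 4324 at medium dose and 7288, 7527 and 7590 at high dose. Each dose was separate from the one below. The log2 fold change was 2.87 (SE 0.0406) at high dose and 2.05 (SE 0.0414) at medium dose, both with a Wald adjusted p written as 0, and 0.42 (SE 0.0454, Wald adjusted p 1.34e-17) at low dose. From the medium to the high dose ASNS rose a further 1.77-fold (log2 0.82, SE 0.0339, Wald adjusted p 4.31e-127). Its 4 annotated pseudogenes had at most 3 counts.

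In the proline route 1 of the 2 members was called. PYCR1 (ENSG00000183010, chromosome 17, 81932384 to 81942412, minus strand), the mitochondrial reductase of the last step, had normalised counts of 1480, 1541 and 1669 with vehicle and 1709, 1931 and 1818 at the low dose. They were 2620, 2786 and 2780 at medium dose and 3347, 3635 and 3759 at high dose. All 4 groups were separate, with the vehicle and low dose libraries nearest to each other. PYCR1 rose 2.29-fold at high dose (log2 fold change 1.20, SE 0.0551, Wald adjusted p 1.14e-102) and 1.75-fold at medium dose (0.80, SE 0.0557, Wald adjusted p 3.72e-45). Of its exon bases 15.6% lie opposite exons of a gene on the other strand.

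ALDH18A1 (ENSG00000059573, chromosome 10, 95605941 to 95656711, minus strand), the synthase of the first step, had normalised counts of 2729, 2685 and 2709 with vehicle and 2609, 2627 and 2710 at the low dose. They were 2462, 2471 and 2393 at medium dose and 2377, 2318 and 2371 at high dose. The medium and high dose libraries lay below every vehicle library. The log2 fold change was -0.20 at high dose, with a 95% interval of -0.28 to -0.13 (Wald adjusted p 3.87e-07), and -0.15 at medium dose (Wald adjusted p 0.000518), both inside the fold threshold and so not called. The ratio of PYCR1 to ALDH18A1 counts went from 0.577 ± 0.0371 with vehicle to 1.52 ± 0.0977 at the high dose (SD, n = 3), again a description with no test.

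**Figure D2:**
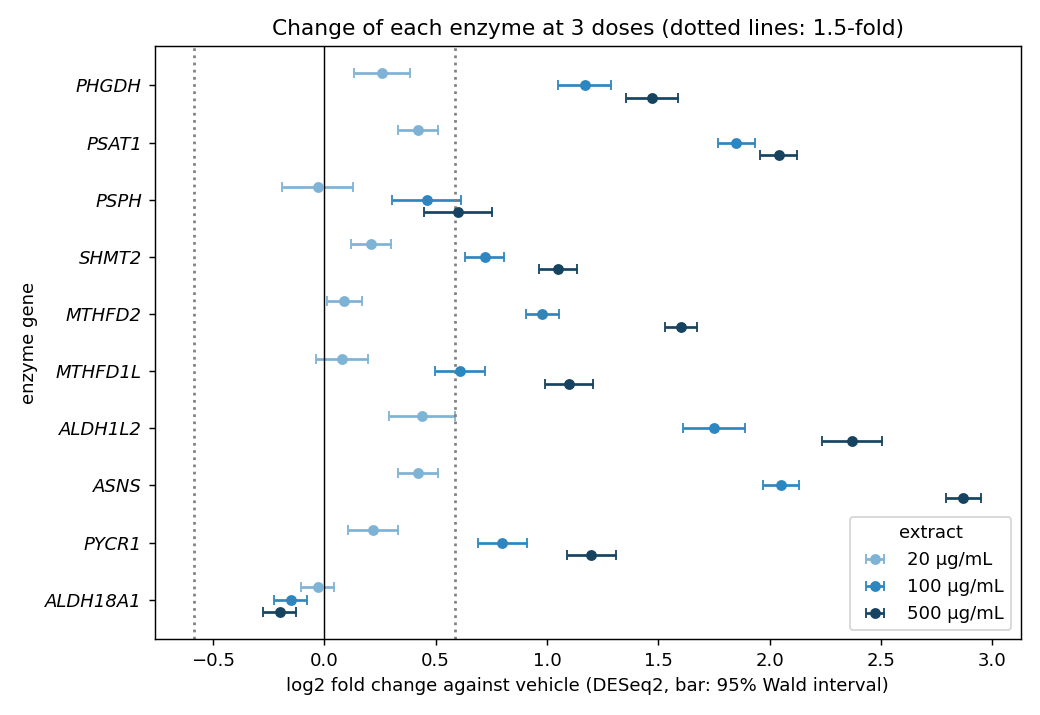
Log2 fold change of each enzyme against vehicle (horizontal axis) at 20, 100 and 500 µg/mL, with 95% Wald intervals from DESeq2. Dotted lines mark 1.5-fold. The high dose points run from -0.20 for ALDH18A1 to 2.87 for ASNS, and all low dose points lie inside the dotted lines.

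How much of the high dose change was present at medium dose differed among the enzymes. On the log2 scale the medium dose reached 90.8% of the high dose change in PSAT1 and 80% in PHGDH, but 61% in MTHFD2 and 55.2% in MTHFD1L. The remaining enzymes lay between 67.2% (PYCR1) and 76.4% (PSPH). From medium to high dose 3 of the 10 were called higher, against 4.58% of all genes tested. They were MTHFD2 (log2 difference 0.62, Wald adjusted p 7.75e-73), ALDH1L2 (0.63) and ASNS (0.82). The 95% intervals of these differences were 0.56 to 0.69 in MTHFD2 and 0.75 to 0.89 in ASNS, above the 0.11 to 0.26 of PSAT1 and the 0.19 to 0.40 of PHGDH, but the differences between genes were not tested.

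From low to medium dose 6 of the 10 were called higher, against 1.35% of all genes tested. They were PHGDH (log2 difference 0.91), PSAT1 (1.43), MTHFD2 (0.89), ALDH1L2 (1.31), ASNS (1.63) and PYCR1 (0.59). Deviations of same-numbered low and medium dose libraries correlated weakly, at 0.122 to 0.186. With the replicate number as a block 5 of the 10 were called higher, PYCR1 being lost at 0.58. The PYCR1 call was also lost, at 0.54 to 0.58, without low dose replicate 1 or 3 or without medium dose replicate 2 or 3. By the Wald adjusted p alone, 8 of the 10 were higher at high than at medium dose. From low to medium dose 9 were higher and 1 lower. The share of all genes tested that passed in either direction was 40.9% and 18.9% for these comparisons. It was 46.5%, 29.5% and 3.29% for the high, medium and low dose against vehicle.

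Per kilobase of each gene's Ensembl canonical transcript, the order of the enzymes' levels changed with dose. With vehicle SHMT2 was highest, at 981 ± 13.8 normalised counts per kilobase (SD, n = 3), followed by ALDH18A1 (808 ± 6.5), PYCR1 (689 ± 42.7) and PSAT1 (567 ± 20.6). ASNS (428 ± 6.08) and MTHFD2 (418 ± 3.91) came next with overlapping libraries, then PHGDH (344 ± 20.8). PSPH (262 ± 23) and MTHFD1L (256 ± 3.19) overlapped as well, and ALDH1L2 was lowest at 51.6 ± 3.01. At the low dose the PYCR1 libraries (802 ± 48.9) overlapped those of both ALDH18A1 (790 ± 16.1) and PSAT1 (759 ± 5.89), while every ALDH18A1 library lay above every PSAT1 library. At the medium dose PSAT1 led with 2041 ± 93.6 normalised counts per kilobase, ahead of ASNS with 1774 ± 38.8. At the high dose ASNS led with 3131 ± 67, ahead of PSAT1 (2326 ± 25.6), SHMT2 (2036 ± 89), PYCR1 (1578 ± 93.2), MTHFD2 (1268 ± 34.6) and PHGDH (947 ± 23.5). ALDH18A1 (703 ± 9.64) had moved from the second to the seventh place, above MTHFD1L (549 ± 5.53), PSPH (399 ± 12.1) and ALDH1L2 (268 ± 11.1), and no neighbours in the high dose order overlapped. The transcripts the libraries held may differ from the canonical ones, which would shift a gene's place in this order.

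**Figure D3:**
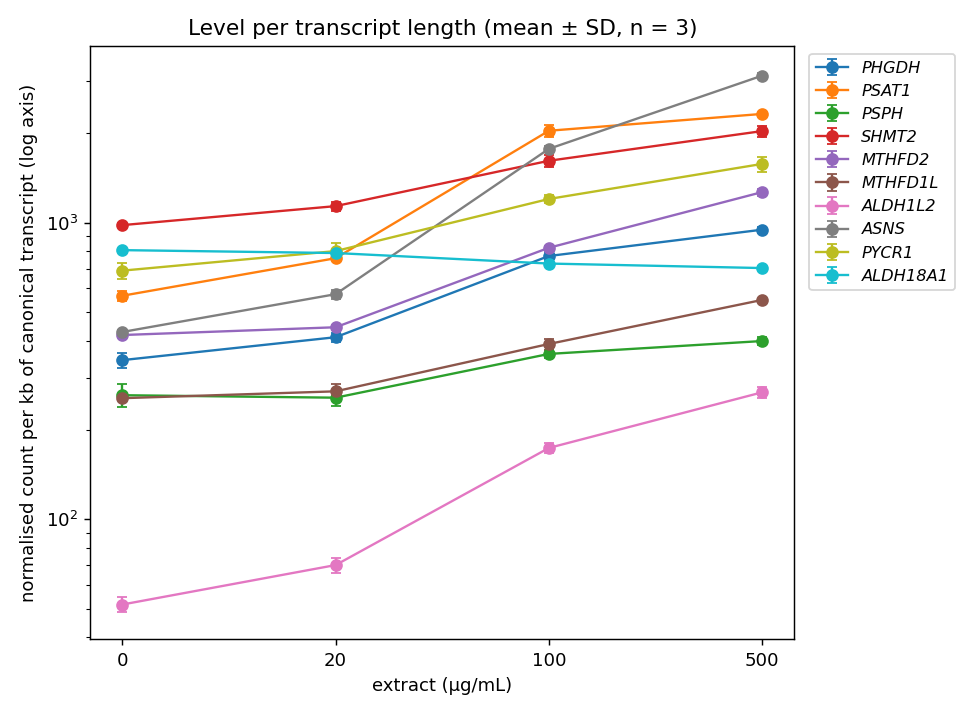
Normalised count per kilobase of canonical transcript (vertical axis, log scale) by extract concentration in µg/mL (horizontal axis, evenly spaced, 0 is vehicle), mean ± SD over 3 libraries. ASNS climbs from 428 to 3131 and becomes the highest of the 10, and ALDH18A1 goes from 808 to 703.

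Several of the enzymes have a paralog in the cytosol or a second mitochondrial form, and the ratio of each to its paralog was followed in every library as the log2 ratio of normalised counts plus 0.5. An exact two-sided permutation test over the 12 libraries, with all 15400 assignments to 4 groups of 3, asked whether the ratio differed among the groups, and p-values were adjusted over the 5 pairs tested, of which 4 are described. SHMT1, the cytosolic partner of SHMT2, had normalised counts of 634, 651 and 702 with vehicle and 432, 423 and 441 at the high dose, and it fell by 0.62 on the log2 scale (SE 0.0785, Wald adjusted p 2.86e-14). The log2 ratio of SHMT2 to SHMT1 went from 1.68 ± 0.0729 with vehicle to 3.34 ± 0.0353 at the high dose (n = 3, exact permutation p 6.49e-05, adjusted 0.000162). That p is the smallest the test can give, while 3 libraries against 3 alone could not go below 0.1.

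MTHFD1, the cytosolic trifunctional enzyme, had 4611, 4546 and 4420 normalised counts with vehicle and 3708, 3705 and 3753 at the high dose. Its log2 fold change was -0.28 (SE 0.0319), lower in all 3 libraries but inside the fold threshold. Of the MTHFD1 exon bases 11.1% lie opposite exons of genes on the other strand. The log2 ratio of MTHFD1L to MTHFD1 went from -2.35 ± 0.0488 to -0.98 ± 0.0199 (n = 3, exact permutation p 0.000325, adjusted 0.000406). MTHFD2L, the mitochondrial paralog of MTHFD2, had 181, 169 and 186 normalised counts with vehicle and 186, 258 and 209 at the high dose. The groups met at 186, with a log2 fold change of 0.29 (SE 0.14, Wald adjusted p 0.0783). The log2 ratio of MTHFD2 to MTHFD2L went from 3.36 ± 0.0766 to 4.69 ± 0.198 (n = 3, exact permutation p 0.00013, adjusted 0.000216). ALDH1L1, the cytosolic partner of ALDH1L2, had at most 2 counts in any library, so that pair was not tested.

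PYCR3, a cytosolic reductase and paralog of PYCR1, had 540, 551 and 555 normalised counts with vehicle and 333, 337 and 331 at the high dose, and it fell by 0.72 (SE 0.082, Wald adjusted p 2.13e-17). The log2 ratio of PYCR1 to PYCR3 went from 1.51 ± 0.0711 to 3.42 ± 0.0892 (n = 3, exact permutation p 6.49e-05, adjusted 0.000162). In each of these 4 pairs every high dose library lay above every vehicle library. The enzyme of each pair was itself called higher at the high dose, so the ratios are not separate from that rise. How many other gene pairs separate in this way was not counted.

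**Figure D4:**
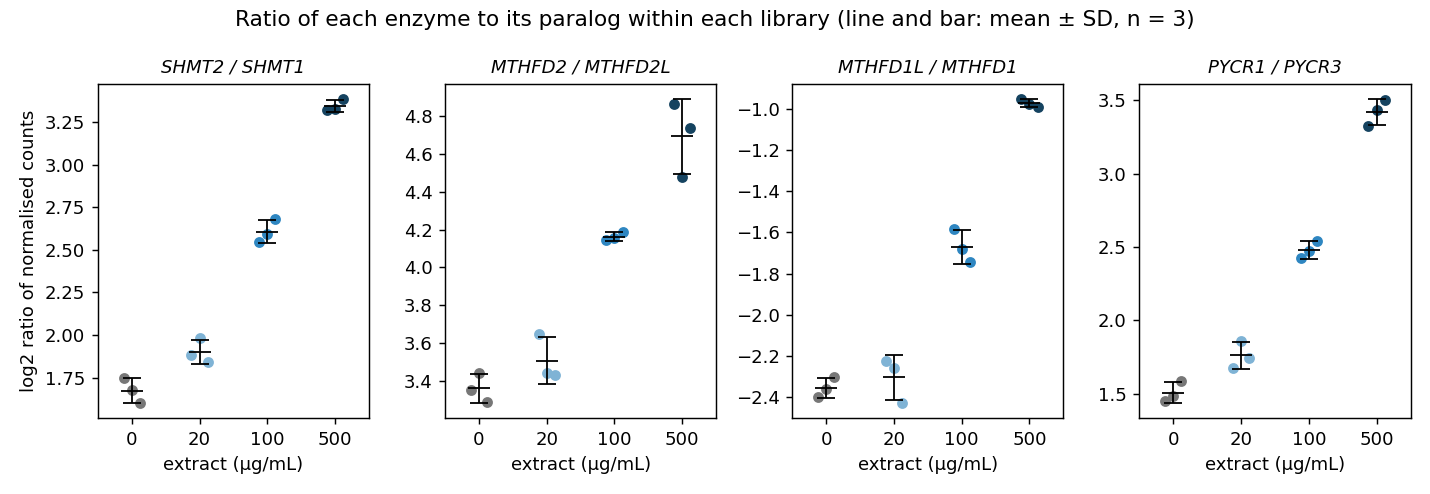
Log2 ratio of normalised counts of each enzyme to its paralog (vertical axes, each with its own range) in every library by extract concentration in µg/mL (horizontal axes, evenly spaced, 0 is vehicle), with mean ± SD over 3 libraries. The mean log2 ratio is higher at high dose than with vehicle in all 4 panels, by 1.33 for MTHFD2/MTHFD2L to 1.91 for PYCR1/PYCR3.

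The other genes of the pathways did not move as one. Among 19 tested folate cycle partners, which carry, reduce or use folate, 0 were called higher and 3 lower at the high dose. Of all genes tested, 8.66% were called higher and 9.57% lower. The median log2 fold change of the partners was -0.25. At an unadjusted p under 0.05 in DESeq2, 6 of the 21 listed were higher and 9 lower, against 16.4% and 15.9% of all genes fitted. TYMS and SHMT1 were among those called. TYMS, thymidylate synthase, had 1871, 1877 and 1742 normalised counts with vehicle, 1222, 1133 and 1074 at medium dose and 845, 791 and 849 at high dose. It fell by 1.14 on the log2 scale at high dose (SE 0.0616, Wald adjusted p 1.98e-75) and was also called at medium dose, where it was the only partner called. Genes on the other strand overlap 47.9% of the TYMS exon bases, so part of its count is uncertain.

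Among 17 tested genes of serine and glycine use, 3 were called higher and 1 lower at the high dose. The shares over all genes tested were 8.66% higher and 9.57% lower. This list had a median log2 fold change of 0.16. SDSL, a serine dehydratase-like protein, went from 186, 189 and 211 normalised counts to 260, 338 and 312 (log2 fold change 0.64, SE 0.124, Wald adjusted p 1.17e-06). SPTLC3, a subunit of serine palmitoyltransferase, went from 484, 491 and 471 to 240, 238 and 260 and fell by 0.97 (SE 0.0964, Wald adjusted p 8.14e-23). The others called, AMT of the glycine cleavage system (log2 fold change 1.37) and DMGDH, which demethylates dimethylglycine (4.09), had mean counts under 100 and are named after their values were seen. DMGDH had at most 3.5 normalised counts in a vehicle library. AMT and DMGDH were also called at medium dose, DMGDH not without high dose replicate 1, 2 or 3 or without medium dose replicate 3, which left 1 gene.

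Among 12 tested genes of the methionine cycle and transsulfuration, 2 were called higher and 1 lower at high dose. Of all genes tested, 8.66% were called higher and 9.57% lower. The median log2 fold change of the 12 was 0.11. The 2 called higher were the consecutive enzymes that pass the sulfur of homocysteine, with the carbon chain of serine, to cysteine. CBS had 142, 137 and 156 normalised counts with vehicle, 507, 507 and 615 at medium dose and 881, 887 and 1041 at high dose, a rise of 2.69 on the log2 scale (SE 0.12, Wald adjusted p 6.48e-110). CTH had 128, 154 and 128 with vehicle, 320, 323 and 341 at medium dose and 780, 761 and 779 at high dose, a rise of 2.49 (SE 0.109, Wald adjusted p 1.54e-114). Both were also called at the medium dose, where 2.34% of all genes tested were called higher. No gene with a count carried the symbol CBSL, a near-identical copy of CBS, while CBS had 139 to 1113 counts per library. An ID outside GENCODE v44 would carry no symbol, and a split of reads with such a copy was not examined. MAT2A, which makes S-adenosylmethionine, went from 7989, 7975 and 8034 with vehicle to 7022, 6902 and 6851 at medium dose and 3795, 3719 and 3743 at high dose, a fall of 1.09 (SE 0.0271, Wald adjusted p written as 0). Of the MAT2A exon bases 12.5% lie opposite exons of GGCX.

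Among 17 tested genes of proline, glutamate, glutamine and aspartate, 4 were called higher and 2 lower at the high dose. The shares over all genes tested were 8.66% higher and 9.57% lower. This list had a median log2 fold change of -0.05. GOT1, GPT2 and ARG2 were among the higher ones. GOT1, the cytosolic aspartate aminotransferase, had 688, 667 and 662 normalised counts with vehicle and 2156, 2349 and 2304 at the high dose, a rise of 1.76 (SE 0.0607, Wald adjusted p 7.48e-182). GPT2, the mitochondrial alanine aminotransferase, went from 581, 555 and 621 to 1265, 1321 and 1319, a rise of 1.15 (SE 0.0671, Wald adjusted p 8.61e-65). GOT1 and GPT2 were the members of this list called at the medium dose. ARG2, mitochondrial arginase, went from 131, 95.5 and 93.7 to 186, 168 and 209 (0.82, SE 0.17, Wald adjusted p 6.57e-06), with 39.6% of its exon bases opposite another gene. The lower ones were PYCR3 and ASRGL1, an asparaginase-like enzyme with a mean count under 100, named after its value was seen (-0.61). DESeq2 called 0 genes of the 4 lists at the low dose and edgeR called 1, AMT, while an unadjusted p under 0.05 in DESeq2 was reached by 3 folate cycle partners, 2 genes of serine and glycine use, 4 of the methionine cycle and transsulfuration and 4 of proline, glutamate, glutamine and aspartate, of 21, 18, 14 and 20 with counts. Of all genes fitted 5.02% reached it in either direction.

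**Figure D5:**
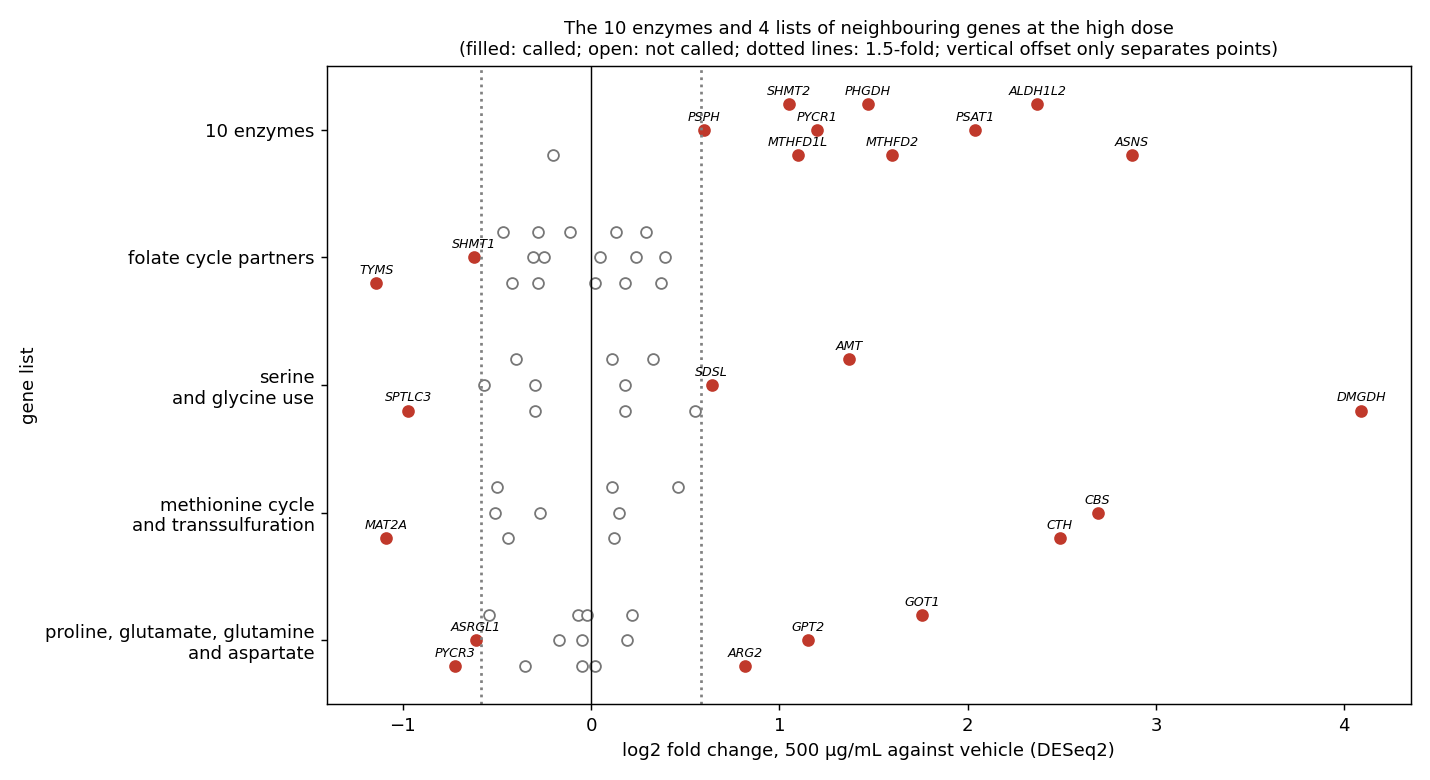
Log2 fold change at 500 µg/mL against vehicle (horizontal axis, DESeq2) of the 10 enzymes and of genes averaging 10 or more normalised counts in 4 lists of neighbouring genes (vertical axis), with a few list genes not shown. Filled points are called genes, open points are not called, and dotted lines mark 1.5-fold. Of the enzymes 9 of 10 are called higher, while no folate cycle partner is. In the methionine cycle and transsulfuration list CBS (2.69) and CTH (2.49) are called higher. Over all genes tested 8.66% are called higher and 9.57% lower.

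Among known regulators of these enzymes, ATF4 mRNA had 2092, 2024 and 2060 normalised counts with vehicle and 2543, 2584 and 2656 at the low dose. It had 5380, 5590 and 5744 at medium dose and 8623, 8070 and 8446 at high dose. Its log2 fold changes were 0.33 at low dose (Wald adjusted p 2.66e-14, inside the fold threshold), 1.44 at medium dose and 2.03 at high dose. MYC, a growth regulator, had 901, 875 and 988 with vehicle and 2945, 2638 and 2807 at the high dose, with log2 fold changes of 0.17 (Wald adjusted p 0.102), 0.70 and 1.60 from low to high. NFE2L2, which encodes the antioxidant regulator NRF2, had 1517, 1531 and 1509 with vehicle and 2159, 2069 and 2139 at the high dose. Genes on the other strand overlap 24.8% of the NFE2L2 exon bases. The NFE2L2 log2 fold change was 0.48 at high dose (Wald adjusted p 4.31e-22), inside the fold threshold, and 0.02 at medium dose. These are mRNA values, and the activity of the proteins was not measured.

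By a fixed rule, genes were ranked by how near their 3 log2 fold changes against vehicle lay to each enzyme's. Euclidean distance was used, among genes averaging 100 or more normalised counts. The rule gives 3 genes for each enzyme, all named for PSAT1, PHGDH and MTHFD2 and only in part for the others. Nearest to ASNS were CBS (distance 0.23) and SESN2 (0.231), and nearest to ALDH1L2 was PCK2 (0.133). PSAT1 had the most distant nearest gene of the 10, KCNG1 at 0.252, followed by PCK2 at 0.32 and ATF4 at 0.419. For PHGDH they were MKNK2 (0.0447), SLC6A9 (0.0537), which imports glycine, and DDIT4 (0.145). For MTHFD2 they were SLC38A1 (0.0919) and SLC1A4 (0.143), transporters of neutral amino acids, and ARHGEF2 (0.17). MICALL1 (0.0447) was nearest to MTHFD1L, BNC1 (0.0934) to SHMT2, BCL2 (0.0612) and GPT2 (0.0712) to PYCR1, and GOLGA8N (0.026) to PSPH. AAR2 (0.00534) was nearest to ALDH18A1, in a range of small changes that many genes share. The distances rest on 3 comparisons with the same vehicle libraries and carry no test.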

How the data were processed

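The values analysed are RSEM expected counts of each gene, deposited by the authors and made from strand-specific 100-base paired-end libraries. Per the submitters' processing notes the tools were FastQC 0.11.9, Trim Galore 0.6.5, STAR 2.7.3a and RSEM 1.3.3 on GRCh38. RSEM shares reads among similar genes, so 8.75% of the values were not whole, and they were rounded here. Whether strand was used in counting is not stated. Groups and replicate numbers came from the sample labels. Symbols and coordinates came from GENCODE v44 (GRCh38), a later annotation than the authors'.

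All genes were fitted in R 4.3.3 with DESeq2 1.42.0 (two-sided Wald test, group as the only term, all 12 libraries, independent filtering at 0.05). A call needed an adjusted p under 0.05 and a fold over 1.5. The scripts were tested on simulated data. Replicate pairs differed by more than counting noise (chi-square per degree of freedom 2.06 to 3.77), so none was merged. Nothing in the labels says what a replicate number marks. Deviations of same-numbered libraries from their group means correlated at 0.122 to 0.186 between low and medium dose, over the limit of 0.1 set for pairing in all 3 pairs, and not in all pairs of any other comparison. Alternatives included edgeR 4.0.16, TMM factors, other filters and leaving out each library.

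All 10 enzymes were named, with their paralogs and, of each list, up to 4 called genes that averaged 100 or more normalised counts, by size of change at the high dose. The enzymes, lists and tests were chosen with earlier results of these data known. Protein sequences were not used here, and the planned comparison of paralog proteins was not run. Some genes that met the naming rule are not reported here.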

Additional observations from a re-analysis of the deposited data

How the results depend on the processing

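The counts of the 10 enzymes called at each dose stayed within 1.5 times their values under the edgeR quasi-likelihood test, TMM factors, other filters, fits of the compared groups alone, fits without mitochondrially encoded genes and fits without each library in turn. Leaving out 1 library gave 8 to 9 enzymes at the high dose, 7 to 8 at the medium dose, 0 at the low dose and 5 to 6 from low to medium dose. By the adjusted p alone the enzymes called became 6 at the low dose, 8 between high and medium dose and 10 between medium and low dose. By the same rule, 14 of 19, 8 of 18 and 1 of 14 folate cycle partners tested passed at the high, medium and low dose. In the same order, genes of serine and glycine use gave 9 of 17, 8 of 13 and 1 of 9. The methionine cycle and transsulfuration list gave 10 of 12, 6 of 11 and 2 of 11. Genes of proline, glutamate, glutamine and aspartate gave 10 of 17, 6 of 16 and 2 of 13. Of all genes tested, 46.5%, 29.5% and 3.29% passed in either direction. Serine and glycine use had 1 gene called at the medium dose when those groups alone were fitted and 1 to 2 when a library was left out, and 1 at the low dose with edgeR (AMT). The low dose value of PSPH, -0.03, turned to 0.03 without vehicle replicate 2 and 0.00 without low dose replicate 3, lay between -0.10 and 0.03 over the libraries left out, and was called in no setting. The 6 enzymes higher at the low dose by the adjusted p alone, a count added after the data were seen, were 4 to 6 across the libraries left out. The pair ratios moved little when a library was left out (SHMT2/SHMT1 1.63 to 1.71, PYCR1/PYCR3 1.87 to 1.96).

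Same-number correlations ran from -0.113 to 0.219 and 5 of 18 were over 0.1. All 3 between low and medium dose were, the only comparison where the numbers met the rule for pairing, and 8 of 12 libraries matched best with their own number, as a hint from the data. With the replicate number as a block, 9, 8 and 0 enzymes were called at the high, medium and low dose, 3 between high and medium dose and 5 between medium and low dose, where PYCR1 was at 0.58 and its call was lost. Independent filtering at the low dose left genes averaging under 263 untested, which limits what the lists can show there but not the 10 enzymes, the lowest of which, PSPH, averaged 631.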
